A study of Mus musculus with 2 samples.

Results

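EP300 peaks at 10 genes of the NF-kappaB system were examined in whole lung of newborn B6NCrl mice (postnatal day 0). The members were 5 genes for the transcription factor's subunits (Nfkb1, Nfkb2, Rel, Rela and Relb) and 5 genes that act against the pathway or are induced by it as feedback (Nfkbia, Tnfaip3, Nfkbiz, Zfp36 and Birc3). A peak belonged to a member when the member's start site was the nearest protein-coding transcription start site (TSS) within 100 kb of the summit, or when the summit lay in the member's gene body. By this rule 62 of the 43988 peaks of the authors' optimal set were members, 15 at subunit genes and 47 at inhibitor genes. Every one of the 62 qualified by its nearest start site, and the gene body clause added 0. The study made 2 libraries by chromatin immunoprecipitation with sequencing (ChIP-seq) against EP300, a histone acetyltransferase recruited to active enhancers and promoters. They form 1 group, with no treatment, genotype or time to compare, and the sex was not collected. They are numbered as biological replicates 1 and 2 but name 1 donor and 1 biosample, and whether the lungs of several pups were pooled is not given, so their spread may be only technical. The control experiment that the labels name was not analysed here. The deposited lists hold peaks and not reads, so the depth of each library is unknown.

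NF-kappaB is a family of dimeric transcription factors that waits in the cytoplasm bound to inhibitors of the IkappaB family. Signals such as TNF, interleukin-1 or bacterial products lead to the breakdown of the inhibitor, and the dimer enters the nucleus and binds kappaB sites. Among its targets are its own inhibitors, which end the response, and this negative feedback is a textbook example of a self-limiting circuit. In the lung the pathway is best known for inflammation and defence against microbes, and several of the inhibitor genes are also known to be induced by glucocorticoids.

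The sequences under the peaks are shown first, because the kappaB site is the element that NF-kappaB binds. Binding of NF-kappaB itself was not measured. Matches were sought on either strand in the 100 bp centred on each summit. The kappaB consensus has 10 letters and allows several bases at some of them, the glucocorticoid response element was GNACANNNTGTNC, and overlapping kappaB matches count as 1 place. Of the 62 peaks 7 held a kappaB site (11.3%), against 2.22% of all 43972 optimal peaks on the chromosomes. They lay at Nfkbia (3 peaks), Tnfaip3 (2), Zfp36 (1) and Nfkb2 (1), that is 6 of 47 inhibitor peaks and 1 of 15 subunit peaks. The central windows that overlap no annotated untranslated region (UTR) are shown on the plus strand of mm10, with every consensus match in capitals. The first 3 belong to Nfkbia and lie 720 bp downstream, 306 bp upstream and 2.68 kb upstream of its start site, at chr12:55491877-55491976, chr12:55492903-55493002 and chr12:55495277-55495376.
Nfkbia intron: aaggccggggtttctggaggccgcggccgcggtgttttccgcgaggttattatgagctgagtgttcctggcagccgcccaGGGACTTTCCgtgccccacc
Nfkbia near upstream: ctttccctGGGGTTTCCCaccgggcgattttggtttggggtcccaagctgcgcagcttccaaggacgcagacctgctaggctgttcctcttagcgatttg
Nfkbia upstream: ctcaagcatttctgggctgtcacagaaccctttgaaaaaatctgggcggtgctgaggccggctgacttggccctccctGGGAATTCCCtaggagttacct

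The other shown windows with a kappaB match were an intronic peak of Tnfaip3 (chr10:19009408-19009507) and a peak 942 bp upstream of Zfp36 (chr7:28381145-28381244). In the Tnfaip3 window the second run of capitals is a C/EBP match. In the Zfp36 window the first run is an AP-1 site, the second a KLF/SP site, and the last joins the kappaB site with overlapping STAT and ETS matches.
Tnfaip3 intron: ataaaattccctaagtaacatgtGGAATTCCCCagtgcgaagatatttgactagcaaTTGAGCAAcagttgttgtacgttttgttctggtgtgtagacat
Zfp36 upstream: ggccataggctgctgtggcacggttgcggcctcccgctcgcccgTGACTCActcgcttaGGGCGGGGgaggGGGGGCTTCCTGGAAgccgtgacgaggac

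The kappaB matches lay between 11 and 40 bp from the summits. Their centres were 35, 37 and 33 bp from the summit in the 3 Nfkbia windows, 22 bp in the Tnfaip3 window and 26 bp in the Zfp36 window. In the promoter peaks of Tnfaip3 and Nfkb2, whose windows overlap a UTR and are not shown, the nearest match was centred 11 and 12 bp away, and a further one at Nfkb2 40 bp away. With windows of 50 bp the count fell to 2 (3.23% of member peaks, against 1.04% of all peaks), and with 200 bp it was 13 (21%, against 4.50%).

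The kappaB peaks were mostly at promoters, taken as 1 kb on either side of a start site. Of the 12 promoter peaks of members 5 held a kappaB site (41.7%), against 3.44% of the 5835 promoter peaks in the optimal set. Away from promoters the counts were 2 of 50 (4.0%), against 2.04% of 38137. The member promoter peaks were rich in G and C, with a median of 61.0% in the central window against 53.0% over all promoter peaks. Whether this base composition has a part in the kappaB share was not tested.

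The promoters themselves were read from RefSeq (GRCm38.p6, the assembly that mm10 names), as 250 bases before to 50 after each listed start. The table held 10 promoters of 7 members: Zfp36, Birc3, Tnfaip3, Rel, Nfkbia, Rela and Nfkb2. Of these 10, 6 had a kappaB site, against 8.46% of 32851 RefSeq promoters, and 3 had at least 2, against 0.521%. The 6 were all 3 of Nfkb2 and 1 each of Tnfaip3, Rel and Nfkbia. Of the Nfkb2 promoters 2 overlap and share 1 kappaB site, which is the only site in 1 of them, so the 6 are not independent. The 250 bases before the start of Nfkbia are shown (chr12:55492648-55492897, read on the gene's own strand), since an EP300 summit lay 94 bp upstream of that start, inside this stretch. The capitals mark the kappaB site, which begins 29 bases before the start.
Nfkbia promoter: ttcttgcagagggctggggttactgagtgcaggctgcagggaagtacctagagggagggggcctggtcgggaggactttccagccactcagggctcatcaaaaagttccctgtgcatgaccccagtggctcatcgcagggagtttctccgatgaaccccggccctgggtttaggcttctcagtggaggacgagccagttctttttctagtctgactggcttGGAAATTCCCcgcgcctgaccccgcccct

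Of the other promoters, those of Tnfaip3, Rel and Nfkb2 had kappaB sites that are shown with a few flanking bases on the gene's strand. They begin 125 and 12 bases before the start of Tnfaip3 (chr10:19015516-19015545 and chr10:19015403-19015432), 92 before that of Rel (chr11:23771041-23771070) and 39 and 11 before the first start of Nfkb2 (chr19:46304689-46304718 and chr19:46304716-46304745).
Tnfaip3 distal site: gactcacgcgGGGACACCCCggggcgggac
Tnfaip3 proximal site: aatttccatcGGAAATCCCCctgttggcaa
Rel site: gtaagcagcGGGAAATCCCCccccctcccc
Nfkb2 distal site: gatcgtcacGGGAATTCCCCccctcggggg
Nfkb2 proximal site: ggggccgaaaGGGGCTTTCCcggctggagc

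A kappaB site in the promoter did not go with an EP300 peak in every case. Rel had such a site and no promoter peak, while Rela and Zfp36 had a promoter peak and no kappaB site in the RefSeq promoter. The distal Tnfaip3 site and both Nfkb2 sites also lay in the central windows of promoter peaks.

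Across the 10 genes, peaks were most numerous at Nfkbia and absent at Relb. In whole tissue, strong binding in few cells and weak binding in many cannot be told apart. At least 1 peak was found at 9 of 10 members, where 49.7% of the 21853 protein-coding genes had one under the same rule. A promoter peak was found at 6 of 10 members, against 19.6% of genes. At least 10 peaks were found at 4 of 10 (Nfkbia, Nfkb1, Tnfaip3 and Nfkbiz), against 4.43% of genes. The inhibitors had 9.40 ± 5.64 peaks per gene (SD over 5 genes) and the subunits 3.0 ± 4.53, where the mean over all protein-coding genes was 1.95 ± 4.11 and the median 0. The inhibitor mean was therefore 6.40 peaks per gene above the subunit mean. In the single libraries, each represented by its strongest 43988 peaks, the difference was 7.0 in replicate 1 and 8.2 in replicate 2 (mean 7.60 ± 0.85, SD, n = 2). The genes were not sampled at random and are not replicates, so no test between the roles was made. The ranges overlapped, since Nfkb1 with 11 peaks stood above 4 of the 5 inhibitors. All 5 inhibitors had at least as many peaks as each of the other 4 subunits.

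**Figure D1:**
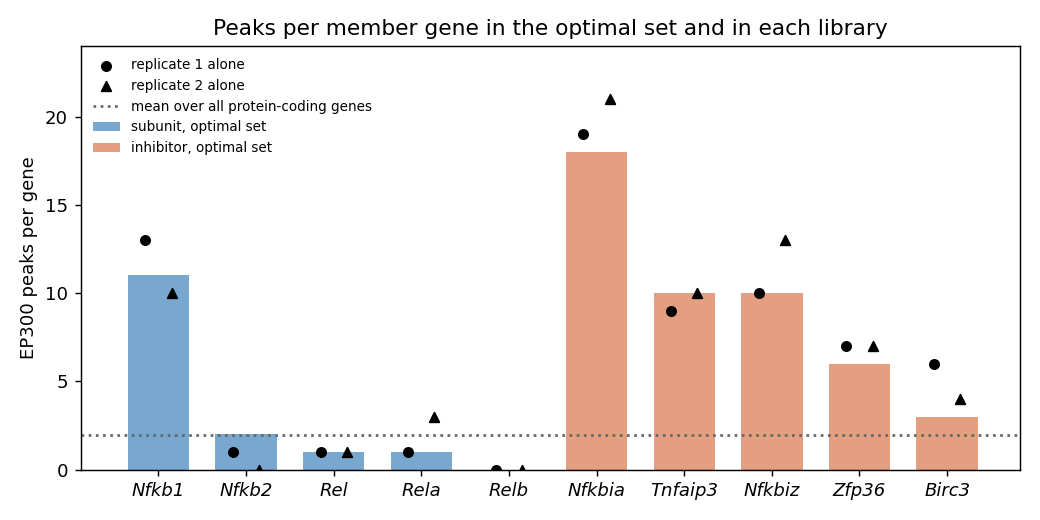
EP300 peaks per gene (vertical axis) at each member: bars give the optimal set, coloured by role, circles and triangles the strongest 43988 peaks of replicate 1 and replicate 2, and the dotted line the mean of 1.95 over all protein-coding genes. Nfkbia stands highest at 18, 4 of the 5 subunits have 2 or fewer, and Nfkb1 with 11 is the exception among them.

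The order of the genes was kept in broad outline by the libraries but not between neighbours. Nfkbia had 18 peaks in the optimal set, 19 in replicate 1 and 21 in replicate 2. Nfkb1 had 11, with 13 and 10 in the libraries, Tnfaip3 10, with 9 and 10, and Nfkbiz 10, with 10 and 13. Nfkbiz lay above Tnfaip3 in both libraries, though they were equal in the optimal set. Nfkb1 could not be ordered against either of them, and Nfkbia lay above all 3 in both libraries. Zfp36 had 6 peaks and 7 in either library, and Birc3 3, with 6 and 4, so that Birc3 lay below Zfp36 in both libraries. Nfkb2 had 2 peaks, with 1 in replicate 1 and 0 in replicate 2. Rel had 1 in the optimal set and in each library, Rela 1, with 1 and 3, and Relb 0 in all of them. Rel and Rela thus lay above Relb in both libraries, while Rela could not be ordered against Rel, nor Nfkb2 against the other 3.

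The sequence for which a member was the nearest gene differed widely in length between the genes. It came to 452.7 kb over the 5 subunits and 508.4 kb over the 5 inhibitors, which gave 3.31 and 9.24 peaks per 100 kb, against 2.29 over all genes. Zfp36 had 10.6 kb and the highest density of the members (56.6 peaks per 100 kb), followed by Nfkbia with 83.2 kb (21.6). Relb had 30.8 kb and Rela 25.9 kb, with 0 peaks and 1. The longest stretches were those of Nfkb1 (211.5 kb), Tnfaip3 (187.2 kb) and Nfkbiz (145.0 kb), whose densities were close to each other, at 5.20, 5.34 and 6.90 peaks per 100 kb.

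**Figure D2:**
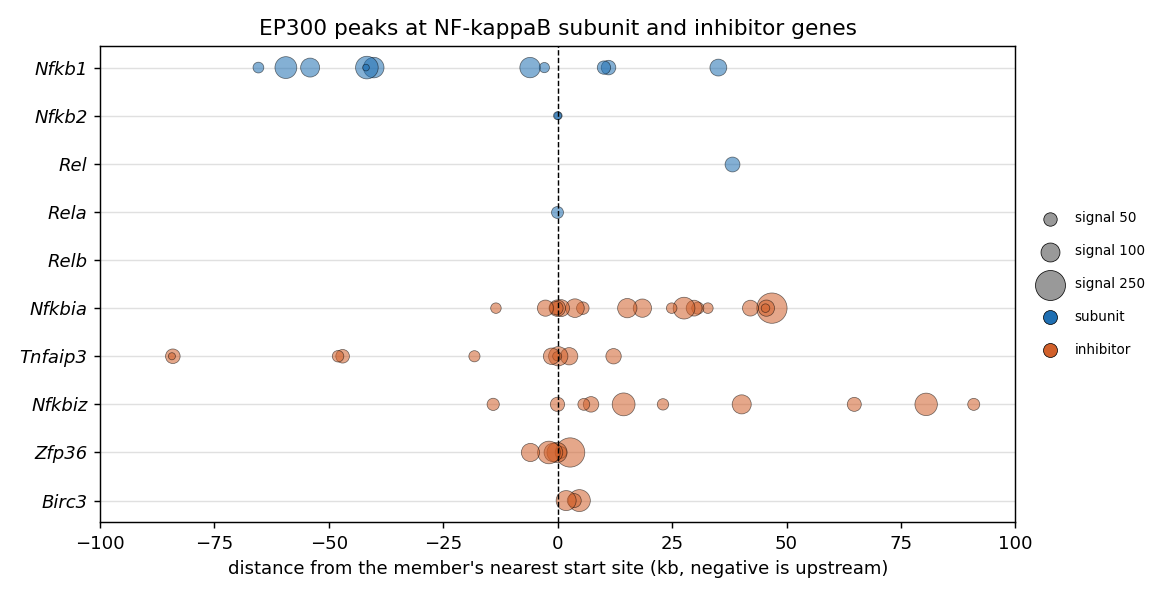
Position of each member peak, as the distance of its summit from the nearest start site of its gene (horizontal axis, kb, negative is upstream), with 1 line per gene and the area of a circle in proportion to the authors' signal value. The peaks of Nfkbia lie mostly downstream out to 46.8 kb, those of Nfkb1 mostly upstream out to 65.4 kb, and those of Zfp36 within 5.96 kb.

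Nfkb1 was the only subunit gene with more than 2 peaks. It encodes p105, the precursor of the DNA-binding subunit p50, and lies on the minus strand (chr3:135584655-135691547). Of its 11 peaks 6 formed a group between 40.2 and 65.4 kb upstream, in sequence between Nfkb1 and Slc39a8 (chr3:135731571-135757146). The strongest of them lay 41.7 kb upstream (chr3:135733040-135733463) with a signal value of 142.88 in the optimal set, 79.61 in replicate 1 and 63.61 in replicate 2. A peak 59.4 kb upstream followed with 133.25, and 78.51 and 54.81 in the libraries. Both were among the strongest 10% of the optimal set, at ranks 2817 and 3396. A further peak overlapped the strongest and had a signal of 12.57, with no summit within 100 bp in either library. A single peak lay beyond the 3' end, 35.1 kb from the nearest start (signal 79.44). Another 4 peaks were intronic, and the strongest of these (115.93) lay 6.05 kb upstream of an internal start site. No promoter peak was called at any of its 3 start sites.

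Nfkb1 is shown by its strongest peak, which is also the strongest of any subunit gene (chr3:135733202-135733301). Its central window held an ETS match (CAGGAAG, here on the minus strand, in capitals) and neither a kappaB site nor a glucocorticoid response element.
Nfkb1 upstream: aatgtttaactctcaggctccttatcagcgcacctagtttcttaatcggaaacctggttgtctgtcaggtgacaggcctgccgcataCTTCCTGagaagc

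The other subunit genes had 4 peaks in all. Rela, which encodes p65, the main transactivating subunit (gene at chr19:5637483-5648130), had 1 peak 53 bp upstream of its start (chr19:5637218-5637641). Its signal was 40.23, with 23.96 in replicate 1 and 16.30 in replicate 2. Nfkb2, the gene for p100 and p52 of the alternative pathway (chr19:46304320-46312385), had 2 overlapping promoter peaks with signals of 16.75 and 17.69 (ranks 42358 and 42169). Neither was in the conservative set, and within 100 bp of the second there was no peak in replicate 2. The pooled list held a stronger promoter peak of Nfkb2 (signal 21.61) that is not in the optimal set, so the call at Nfkb2 rests on weak peaks.

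Rel, the gene for c-Rel, best known from lymphocytes (chr11:23736847-23770970), had 1 peak, beyond the 3' end of the gene and 38 kb from its start. The signal was 61.81, with 32.50 and 31.53 in the libraries. When start sites of all transcripts of protein-coding genes were used, in place of protein-coding transcripts, this peak went to another gene and Rel had 0. Relb, the partner of p52 (chr7:19606217-19629438), had 0 peaks, and the nearest optimal summit was 35.9 kb from a Relb start site. Weak peaks did lie within 1 kb of start sites in the pooled list, with a signal of 22.70 at Relb (rank 60947 of 300000), 18.14 at Rel (rank 83176) and 22.00 at Nfkb1 (rank 63608). In comparison the best promoter peak of Rela ranked 29021 there, and those of Zfp36 and Tnfaip3 5060 and 6071.

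Nfkbia had the largest number of peaks and the strongest one. It encodes IkappaBalpha, the inhibitor that holds NF-kappaB in the cytoplasm, and is a short gene on the minus strand (chr12:55489410-55492647, 3.2 kb). Its count of 18 peaks was reached or exceeded by 1.20% of protein-coding genes. Only 4 peaks lay upstream, 1 lay in the gene, and 13 followed beyond its 3' end out to 46.8 kb, in the gap between Nfkbia and Psma6. The farthest was the strongest (chr12:55445693-55445937), with a signal of 256.82, and 138.48 in replicate 1 and 118.66 in replicate 2. It held rank 461 in the optimal set, 534 in replicate 1 and 415 in replicate 2. The start site of Psma6 is 93.9 kb from that of Nfkbia, so this strongest peak lies almost midway between them. Its assignment to Nfkbia therefore rests on a small difference in distance. When start sites of all transcripts of protein-coding genes were used, Nfkbia had 15 peaks. A peak 27.6 kb downstream had 132.20, with 56.17 and 76.51. The promoter peaks were weaker, at 80.95, 75.98 and 51.39. These 2 distal peaks exceeded each of the promoter peaks in both libraries.

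The strongest Nfkbia peak and the peak with a glucocorticoid response element are shown. The first (chr12:55445762-55445861) held only an ETS match (capitals), 2 bp from its summit. The second, 3.76 kb downstream of the start and just beyond the 3' end (chr12:55488838-55488937), had a signal of 96.73, with 61.97 and 37.56 in the libraries, and its glucocorticoid element (capitals) was 40 bp from the summit.
Nfkbia far downstream: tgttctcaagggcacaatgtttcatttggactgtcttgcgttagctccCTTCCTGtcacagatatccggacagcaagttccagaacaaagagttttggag
Nfkbia downstream: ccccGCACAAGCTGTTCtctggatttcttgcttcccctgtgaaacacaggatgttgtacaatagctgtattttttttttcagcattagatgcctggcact

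Zfp36 had the second strongest inhibitor peak, in the tightest group. It encodes tristetraprolin, which binds AU-rich elements and hastens the decay of cytokine mRNAs (chr7:28376784-28380253). Its 6 peaks lay from 5.96 kb upstream to 2.71 kb downstream of its start sites. The strongest was just beyond the 3' end (chr7:28376408-28376616), with a signal of 239.45 (rank 595), and 135.36 and 108.27 in the libraries. A peak 1.93 kb upstream had 142.78, with 85.92 and 59.69. The promoter peaks had 113.11, 97.88 and 38.02. The last of these had 10.16 in replicate 1 and 25.57 in replicate 2, and was 1 of 4 member peaks that differed by more than 2-fold between the libraries after the overall ratio was removed. The farthest upstream peak lay in a UTR of the neighbouring gene Med29, so its assignment to Zfp36 rests on distance alone.

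Tnfaip3 and Nfkbiz had 10 peaks each, and both had peaks more than 80 kb from a start site. Tnfaip3 encodes A20, a ubiquitin-editing enzyme that shuts off signalling upstream of the kinase complex (chr10:19000910-19015657). Its strongest peak was at the promoter, 115 bp downstream of a start site (chr10:19015330-19015753), with a signal of 103.89, and 62.34 and 45.77 in the libraries. An intronic peak 2.50 kb downstream had 83.89, and a peak 1.35 kb upstream 75.43. The distal peaks were weaker than these, between 14.03 and 66.13, and reached 84.3 kb upstream. A second promoter peak, 120 bp upstream of a start site, had only 22.90, with 10.24 and 18.07 in the libraries. It was not in the conservative set. The limit of 100 kb left out 11 further peaks that have Tnfaip3 as their nearest gene, the first of them 106.8 kb away with a signal of 136.86, above any peak inside the limit. For all other members together the limit left out 1 peak, at Nfkbiz, and the farthest peak it kept was 90.9 kb from Nfkbiz (signal 40.39).

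Nfkbiz encodes IkappaBzeta, a nuclear member of the inhibitor family that also acts as a coactivator at secondary response genes (chr16:55811375-55838899). Of its 10 peaks 8 lay downstream of a start site, 6 of them beyond the 3' end. The strongest were 14.4 kb downstream (chr16:55807536-55807959, signal 145.79, 91.10 in replicate 1 and 52.04 in replicate 2) and 80.5 kb downstream (chr16:55741424-55741847, 140.78, with 71.81 and 70.66). Both were among the strongest 10% of the optimal set, and the second held an AP-1 site 14 bp from the summit. The promoter peak had 57.02, with 31.06 and 25.38. An intronic peak (67.20) had 49.65 in replicate 1 and 15.74 in replicate 2. A peak 14.1 kb upstream lay in an intron of Nxpe3.

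Birc3 had 3 peaks, and all of them lay in introns. It encodes cIAP2, a ubiquitin ligase that restrains the alternative pathway and protects against TNF-induced death (chr9:7848699-7873186). The peaks were 1.84, 3.61 and 4.73 kb downstream of a start site, with signals of 111.85, 54.72 and 134.22. In replicate 1 they had 62.22, 41.51 and 75.49, and in replicate 2 47.73, 18.24 and 60.50, so the middle one was the weakest in both. The conservative set held 5 peaks at Birc3. Among the 2 added was a promoter peak with a signal of 40.09, absent from the optimal set.

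The strongest Birc3 peak is shown because it held the second glucocorticoid response element of the members (chr9:7868206-7868305). The element is the first run of capitals, centred 10 bp from the summit, and the second run is a C/EBP match.
Birc3 intron: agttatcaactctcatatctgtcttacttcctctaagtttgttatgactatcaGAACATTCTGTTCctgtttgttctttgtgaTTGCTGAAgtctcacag

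The glucocorticoid element was in 2 of 62 member peaks (3.23%), near its share of 2.17% in all optimal peaks. AP-1 (TGANTCA) was in 8 (12.9%, against 7.67%), C/EBP (TTGCNNAA) in 8 (12.9%, against 8.7%), ETS (CAGGAAG) in 5 (8.06%, against 10.4%) and FOX (TGTTTAC) in 3 (4.84%, against 5.35%). NKX2 (CAAGTGG) was in 3 (4.84%, against 2.44%), STAT (TTCCNGGAA) in 2 (3.23%, against 1.54%), TEAD (GGAATGT) in 1 (1.61%, against 5.38%) and the cAMP response element (TGACGTCA) in 0 (against 0.403%). KLF/SP (GGGCGGGG), a GC box, was in 6 (9.68%, against 1.34%). Of these 6 peaks 1 was at a subunit gene and 5 at inhibitors, and 4 were at promoters (4 of 12, or 33.3%, against 5.0% of all promoter peaks). Only the kappaB and the KLF/SP shares were more than 4 times the share in all peaks, and both rest on few peaks.

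**Figure D3:**
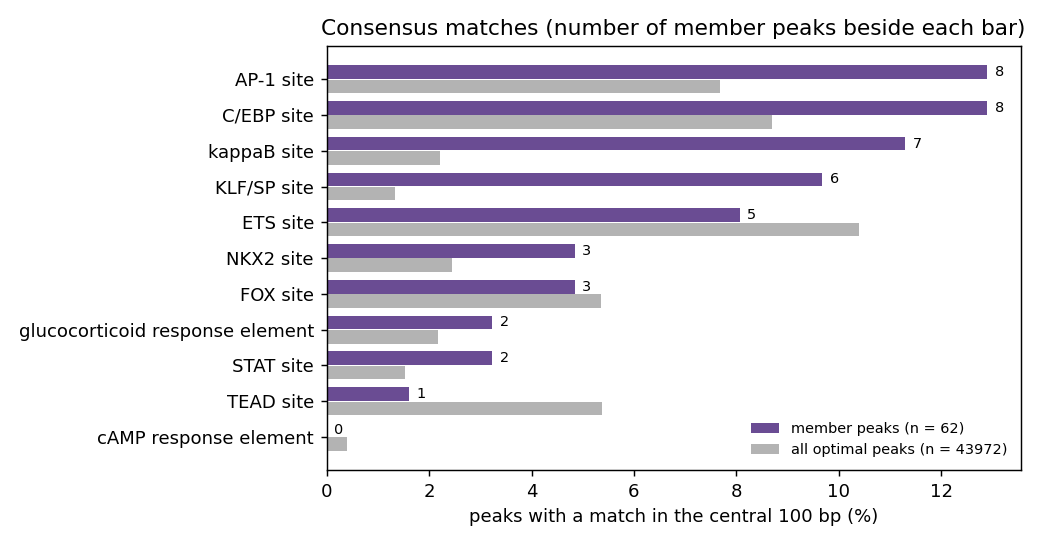
Percent of peaks with a consensus match in the 100 bp around the summit (horizontal axis), for the 62 member peaks (purple, number of peaks beside the bar) and all 43972 optimal peaks (grey). The kappaB and KLF/SP sites stand farthest above their grey bars, at 11.3% against 2.22% and 9.68% against 1.34%.

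The member peaks were stronger at the median than the optimal set and more often outside genes. Their median signal was 66.66 (range 12.57 to 256.82), against 48.51 over the optimal set, and 41 of 62 (66.1%) were at or above that value, against 50% by definition. It was 59.36 at subunits and 69.97 at inhibitors. Among the strongest 10% of peaks were 9 of 62 (14.5%), against 10% by definition, with 2 of 15 at subunits and 7 of 47 at inhibitors. Over 10 kb from the start site lay 35 of 62 (56.5%), against 58.6% of all assigned peaks. Promoter peaks were 12 of 62 (19.4%), against 13.3% of all optimal peaks. By the annotation of protein-coding genes 44 summits were intergenic (71%, against 47.1% of all optimal peaks) and 12 intronic (19.4%, against 46.6%). A further 5 were in a UTR (8.06%, against 3.96%) and 1, at Nfkbiz, in a coding exon (1.61%, against 0.923%). The inhibitors had 35 of 47 intergenic and the subunits 9 of 15. There were 12 peaks that overlapped another member peak, and merging such pairs left 56.

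Both libraries held most of the member peaks. Of the 62, 47 (75.8%) were matched, by a summit no more than 100 bp away, in the strongest 43988 peaks of each library, against 63.0% of all optimal peaks. The count was 11 of 15 at subunits and 36 of 47 at inhibitors. In the complete library lists 55 of 62 were matched (88.7%), where the share of all optimal peaks was 85.9%. Of these 55, 51 lay within 2-fold after subtraction of 0.40, the median over all shared peaks of log2 replicate 1 over replicate 2 (92.7%, against 89.3% of all shared peaks). The 4 exceptions were all at inhibitors, where 38 of 42 shared peaks lay within 2-fold (90.5%, near the 89.3% of all shared peaks). There was 1 each at Zfp36 (-1.73 on the log2 scale, lower in replicate 1), Tnfaip3 (-1.22), Nfkbiz (1.26) and Nfkbia (1.30). The one at Nfkbia was the peak 2.68 kb upstream with a kappaB site, with 55.39 in replicate 1 and 17.13 in replicate 2.

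**Figure D4:**
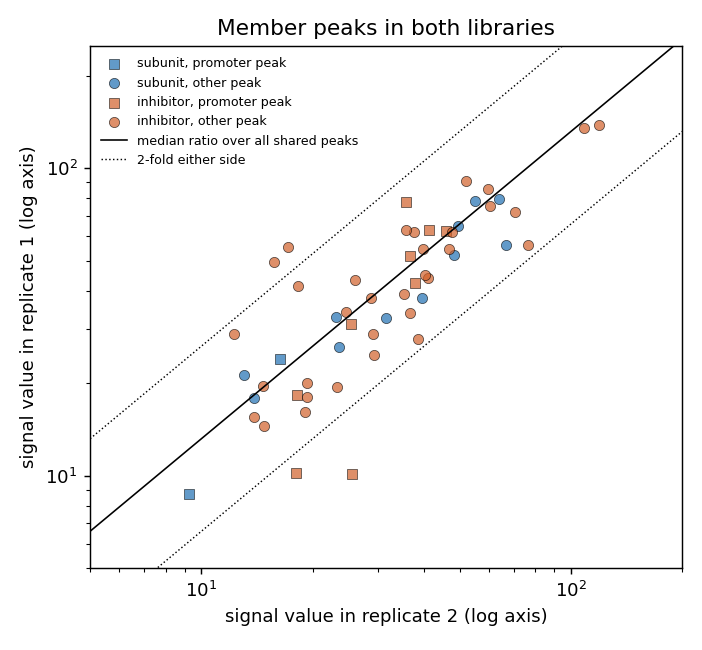
Signal value of each of the 55 member peaks found in both libraries, in replicate 2 (horizontal) and replicate 1 (vertical), on log axes, with the solid line at the median ratio of all shared peaks and dotted lines at 2-fold on either side. Squares are promoter peaks, and 4 of the 42 inhibitor peaks lie outside the dotted lines while all 13 subunit peaks lie inside.

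The other genes of the pathway were counted in the same way, by lists grouped on their roles. The 20 ligands and receptors had 2.65 ± 3.31 peaks per gene (SD over genes) and 16 had a peak, against 49.7% of all protein-coding genes. They were led by Il1r1, the interleukin-1 receptor gene, with 14, then Tnfrsf1a, the TNF receptor gene, with 6 (3 in replicate 2) and Tlr5 with 6. The 29 adaptors and kinases had 2.14 ± 2.12, and 22 had a peak, with Irak2 at 7, and Map3k8 and Traf5 at 6. None of the 29 reached 10, a count that 4.43% of all protein-coding genes reached. Both means were below the inhibitor mean of 9.40.

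The 20 other negative regulators had 6.60 ± 8.31 peaks per gene with a median of 2, so a few genes carried the mean. Dusp1, a MAP kinase phosphatase gene, had 25, and Zfp36l1 and Zfp36l2, relatives of Zfp36, had 22 and 21. In all 17 of 20 had a peak, 13 had a promoter peak and 5 had at least 10 peaks. The shares of all protein-coding genes were 49.7%, 19.6% and 4.43%. Of the 4 other IkappaB family genes 2 had a peak, against 49.7% of all protein-coding genes. Bcl3 had 5 peaks, a count that 12.8% of genes reached, Nfkbib had 1 and Nfkbid 0. These are genes with little sequence nearest to them, 34.2, 16.2 and 13.6 kb.

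Of the target genes, those for survival had more peaks per gene than those for inflammation, with medians of 4.0 and 2.0. The 10 survival targets had 6.60 ± 7.32 per gene, with 24 at Bcl2l1, an anti-apoptotic gene, 12 at Ier3 and 11 at Gadd45b. The 20 inflammatory targets had 2.45 ± 2.14, with 8 at Icam1, an adhesion molecule gene, 5 at Irf1 and 4 at Saa3. Per 100 kb of nearest sequence, the survival targets had 9.27 peaks and the other IkappaB family genes 8.44, close to the 9.24 of the inhibitors. The other negative regulators had 6.63, the inflammatory targets 4.43, the adaptors and kinases 3.32 and the ligands and receptors 3.08. A high density was thus not particular to the inhibitors. The lists were not tested against each other.

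**Figure D5:**
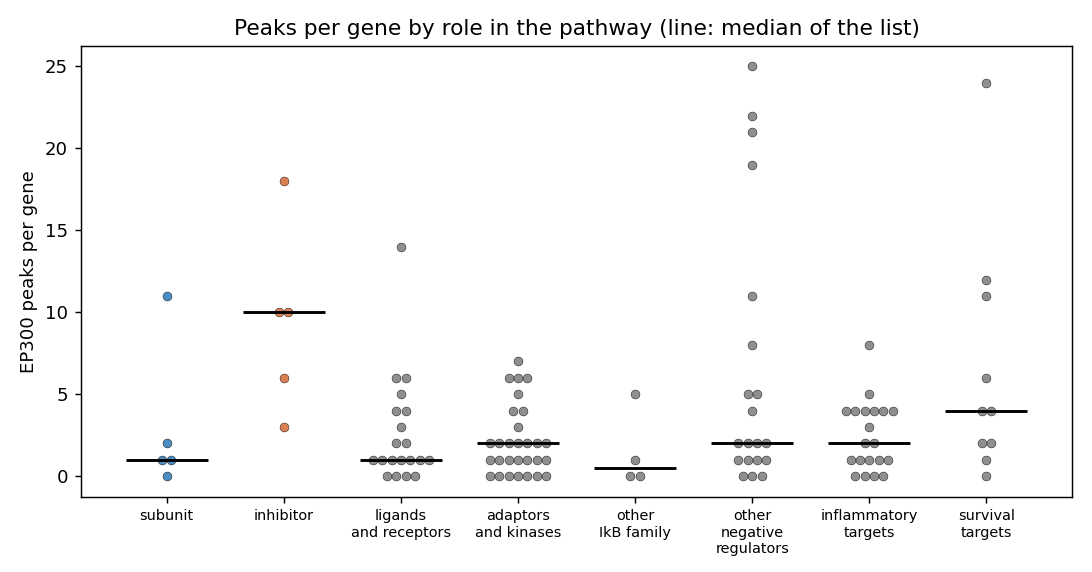
EP300 peaks per gene (vertical axis), 1 point per gene, for the members and the other pathway genes by role, with a line at the median of each list. The inhibitors have the highest median, 10, while the highest single genes are Dusp1 with 25 peaks, among the other negative regulators, and Bcl2l1 with 24, among the survival targets.

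The tissue label was checked against marker genes. All 10 lung markers had a peak, led by Hopx and Sftpb with 18 each, against 1 of 10 liver markers and 5 of 10 leukocyte markers, where 49.7% of all genes had one. The leukocyte markers, of cells in which Rel and the inflammatory genes are best known, had 1.30 peaks per gene and no promoter peak, against 1.95 over all genes, and Mpeg1, a macrophage gene, had the most with 7.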

How the data were processed

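EP300 ChIP-seq peaks of 2 newborn lung libraries were analysed. Per the deposited notes, the reads had been aligned to mm10, and peak lists were made for either library and for their pool, each with 1 further input left undescribed there. From these lists came optimal and conservative sets by the irreproducible discovery rate. Which aligner and caller were used is not given in the sources used here. Signal values stand as the authors deposited them, with no scaling stated. They were used to rank and describe peaks and to compare shared peaks between libraries. Signals of the optimal set are those of the pooled list.

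Peaks on the 21 chromosomes were used (43972 of 43988), with start sites of protein-coding transcripts of GENCODE M21 on GRCm38, whose chromosome lengths held all peaks. Members, lists and consensus sequences were chosen with earlier results of these data known. No test was made, because there is 1 group and genes are not replicates. Named were all members, with their strongest, promoter and top 10% peaks, and the 3 genes with most peaks in each pathway list (ties by strongest peak, then alphabet). Other peaks of members and the marker genes Hopx, Sftpb and Mpeg1 were named after their values were seen. Intervals could not be given without read counts. The search code was checked on simulated data. Python 3.11.15, numpy 2.4.6, pandas 2.3.3, pysam 0.24.0 and matplotlib 3.10.9 were used.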

Additional observations from a re-analysis of the deposited data

How the results depend on the processing

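Leaving out 1 library, by taking the strongest 43988 peaks of the other, gave 67 to 69 member peaks and an inhibitor mean 7.0 to 8.2 above the subunit mean. The member count of 62 was 41 with peaks of at least the median signal and 29 within 10 kb, and stayed within 1.5 times of 62 under the other alternatives. The difference of 6.40 peaks per gene was above 0 under every alternative run: 7.8 with the conservative set, 4.6 with peaks of at least the median signal, 3.0 within 10 kb, 9.0 between medians, and 6.25 without Nfkb1 and Nfkbia, the last chosen after seeing the data, as were the medians and 2 other definitions of start sites (6.2 and 6.6).

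The share of member peaks in both libraries, 75.8%, was 59.7% with summits within 50 bp, 79.0% within 200 bp and 88.7% against complete library lists. The kappaB count of 7 was 2 in windows of 50 bp and 13 in 200 bp, and the glucocorticoid element count of 2 was 1 in 50 bp. Over all alternatives Nfkb2 ranged from 0 to 5, Rela from 0 to 4, Rel from 0 to 1 and Relb from 0 to 1. Nfkb1 ranged from 4 to 13, Nfkbia from 6 to 21, Nfkbiz from 3 to 13, Tnfaip3 from 4 to 10 and Birc3 from 3 to 6. Zfp36 ranged from 5 to 12, and Zfp36 had 12 and Relb 1 when any peak within 50 kb of a member's start site was counted. Of the 62 optimal peaks 55 were in the conservative set (88.7%, against 80.1% of all optimal peaks), which held 14 more at members. Both Nfkb2 peaks were among the 7 it lacked. No paired analysis was possible because there is 1 group. Depth was unknown, so the absence of a peak at Relb is no measure of absent EP300.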
